A study of Homo sapiens with 7 samples.

Results

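Zinc transporter transcripts and the transcript of the zinc sensor MTF1 were followed in U937 cells, a human monocytic leukaemia line grown in zinc. The genes were listed by symbol: 5 SLC30A exporters (SLC30A1, SLC30A5, SLC30A6, SLC30A7 and SLC30A9), 4 SLC39A importers (SLC39A1, SLC39A6, SLC39A8 and SLC39A10) and MTF1. These 10 genes were found among the 26364 symbols of the count tables, and 10 of 10 passed the filter on low counts. Parental U937 MT cells (MT_mock) gave 3 libraries. The derived line U937 B412, in which zinc switches on the fusion PLZF/RARA, gave 2 without drug (B412_mock) and 2 after 96 h in 2.5 µM GSK126 (B412_GSK126). GSK126 blocks the enzyme activity of EZH2, a histone methyltransferase. All 7 libraries came from cells in 0.1 mM ZnSO4, which for B412 began 24 h before the drug; for MT that time is not given in the sources used here. No library grown without zinc was analysed here, so levels of zinc genes cannot be read as responses to zinc, and the effect of the fusion cannot be told apart from other differences between the lines. The labels do not say whether B412 is 1 clone, nor whether replicates were cultured apart. The p-values therefore reflect the spread of these libraries alone, which may be technical.

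Cells set their cytosolic zinc through opposed carriers. SLC30A proteins, also called ZnT, move zinc out of the cytosol, across the plasma membrane or into the secretory pathway and organelles. SLC39A proteins, also called ZIP, move zinc into the cytosol from outside the cell or from compartments. MTF1 is a zinc finger transcription factor that binds zinc when the ion is plentiful and then binds metal response elements in DNA. Its best known targets are the metallothioneins, which buffer zinc, and SLC30A1, which exports it; SLC39A10 is known as a gene that it represses.

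Levels are given as CPM, counts scaled to the library total, with totals adjusted by TMM, a method that evens out differences in composition. Total counts lay between 12736244 and 14848130 per library. The first principal component parted the libraries into 2 sets, with all 3 groups in each, and the labels name no batch. Replicate 1 of each group and replicate 2 of MT_mock made up set 1, while replicate 3 of MT_mock and replicate 2 of either B412 group made up set 2. Within a group, values below are in replicate order. Of 12 myeloid markers 9 to 12 had counts in each library, with summed levels of 1115 to 7199 CPM, although CD14 and CSF1R stayed at or under 0.61 CPM. ANPEP, with 0 counts in MT_mock, stayed at or under 2.64 CPM and FCGR1A at or under 2.68 CPM. The 11 markers of other cell types summed to 1.21 to 7.3 CPM, with MS4A1 at 0 counts throughout. The highest of the 12 myeloid markers in every library was MPO, the myeloperoxidase of immature myeloid cells. It was at 1999, 1508 and 5830 CPM in MT_mock, 503 and 1629 CPM in B412_mock and 1053 and 3830 CPM in B412_GSK126. With the set as a term of the fit it was lower in B412_mock than in MT_mock (log2 change -1.82, edgeR adjusted p = 0.000212). The part of cell maturation in the values given here was not tested. As checks of the labels, ZBTB16, the PLZF gene, had 22 and 28 counts in B412_mock and 7 and 36 in B412_GSK126 against 4, 0 and 0 in MT_mock. EZH2 was read in every library, at 25 to 96.9 CPM. GSK126 blocks the enzyme and not its transcript, so these levels do not check the treatment.

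The DNA upstream of the RefSeq starts (build GRCh38.p14) was searched for the core of the metal response element, to which MTF1 binds, since MTF1 and its targets are read side by side here. The cores were TGCACNC and TGCGCNC on both strands, 7 bases each, and a stretch of one strand cannot match both. Each window held the 250 bases before a start, and 24.8% of 35116 such windows of all genes held a core. Of the 14 windows of the 10 zinc genes 5 held a core, with 1 core in each. These 5 windows belonged to 5 different genes. Genes with more windows have more places to match, so the share of windows is the one to set beside that of all genes. Capitals mark the cores, and a core read on the other strand appears as its reverse complement. SLC30A1 is shown because it is a known MTF1 target, SLC39A8 (before the outermost of its 3 RefSeq starts) because it was the most abundant of the 10 per length, and the metallothionein MT1H for comparison, with 8 cores, the most of the 5 metallothioneins matched. The others held 7 (MT2A), 4 (MT1X), 3 (MT1B) and 3 (MT4), and MT1H was chosen because its window, unlike those of MT2A, MT1X and MT4, holds no exon base of GENCODE 29. Of all windows 1.58% held 3 or more cores and 0.12% held 5 or more. These windows lie at chr1:211579162-211579411 (minus strand), chr4:102345483-102345732 (minus strand) and chr16:56669564-56669813 (plus strand).
SLC30A1: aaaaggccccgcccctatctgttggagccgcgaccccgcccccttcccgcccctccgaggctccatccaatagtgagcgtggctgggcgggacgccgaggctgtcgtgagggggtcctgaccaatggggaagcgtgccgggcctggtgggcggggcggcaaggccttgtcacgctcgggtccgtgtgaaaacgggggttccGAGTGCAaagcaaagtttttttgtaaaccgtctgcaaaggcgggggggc
SLC39A8: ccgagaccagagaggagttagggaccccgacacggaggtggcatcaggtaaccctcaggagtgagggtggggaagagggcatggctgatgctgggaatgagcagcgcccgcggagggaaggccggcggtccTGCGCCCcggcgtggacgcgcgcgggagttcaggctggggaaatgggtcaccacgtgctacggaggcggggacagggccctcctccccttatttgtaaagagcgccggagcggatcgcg
MT1H: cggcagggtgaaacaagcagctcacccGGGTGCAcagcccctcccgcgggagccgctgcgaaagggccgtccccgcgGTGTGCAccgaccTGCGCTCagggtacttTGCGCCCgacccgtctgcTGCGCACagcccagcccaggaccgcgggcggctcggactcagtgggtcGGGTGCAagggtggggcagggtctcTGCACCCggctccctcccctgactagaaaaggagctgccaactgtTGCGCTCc

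Windows of at most 29 bases around the cores of the other 3 genes are shown for comparison, at chr2:32165725-32165753 (plus strand), chr1:153963756-153963784 (minus strand) and chr18:36129341-36129368 (minus strand). The SLC39A1 core belongs to the inner of its 2 annotated starts.
SLC30A6: cttccgccacgGAGTGCAgggacagccgg
SLC39A1: tcctccacagaTGCGCCCcagggccccag
SLC39A6: ccccgcggcgcTGCGCGCggcggtaatt

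The windows of SLC30A5, SLC30A7, SLC30A9, SLC39A10 and MTF1 held neither core, which says only that these letters are not in those 250 bases. For SLC30A1, GENCODE 29 places the start 419 bases downstream of the RefSeq start, so the bases just before that other start were not searched. The window of SLC30A5 lies in exons of that gene for 250 of its 250 bases, and the 2 windows of SLC39A10 for 211 and 133. For these 2 genes the bases before the outermost GENCODE 29 start were thus not searched, or only in small part. A matching core is a description of sequence and no evidence of binding.

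None of the 9 transporters passed the test between groups in any comparison and fit run, nor did MTF1. In these bulk libraries, less RNA of a gene per cell and fewer cells that make it cannot be told apart. The clearest difference among these 10 transcripts ran across the groups, between the library sets, and was largest for SLC30A1. This carrier of the plasma membrane sends zinc out of the cell. It was read at 94, 82 and 752 counts in MT_mock, 72 and 492 in B412_mock, and 85 and 618 in B412_GSK126. In CPM this was 6.58, 6.04 and 53.6 in MT_mock, 6.03 and 33.6 in B412_mock, and 6.54 and 41.9 in B412_GSK126. The 4 libraries of set 1 lay between 6.03 and 6.58 CPM and the 3 of set 2 between 33.6 and 53.6 CPM, so the sets did not overlap while the groups did. The mean of set 2 was 6.83 times that of set 1. In the edgeR fit with groups and set the difference was 2.79 ± 0.202 on the log2 scale (SE). This SE takes the sets as given, although they were drawn from these same counts, so it is no measure of certainty about the difference. Of 13521 genes tested, 195 had a larger increase from set 1 to set 2 (1.44%).

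**Figure D1:**
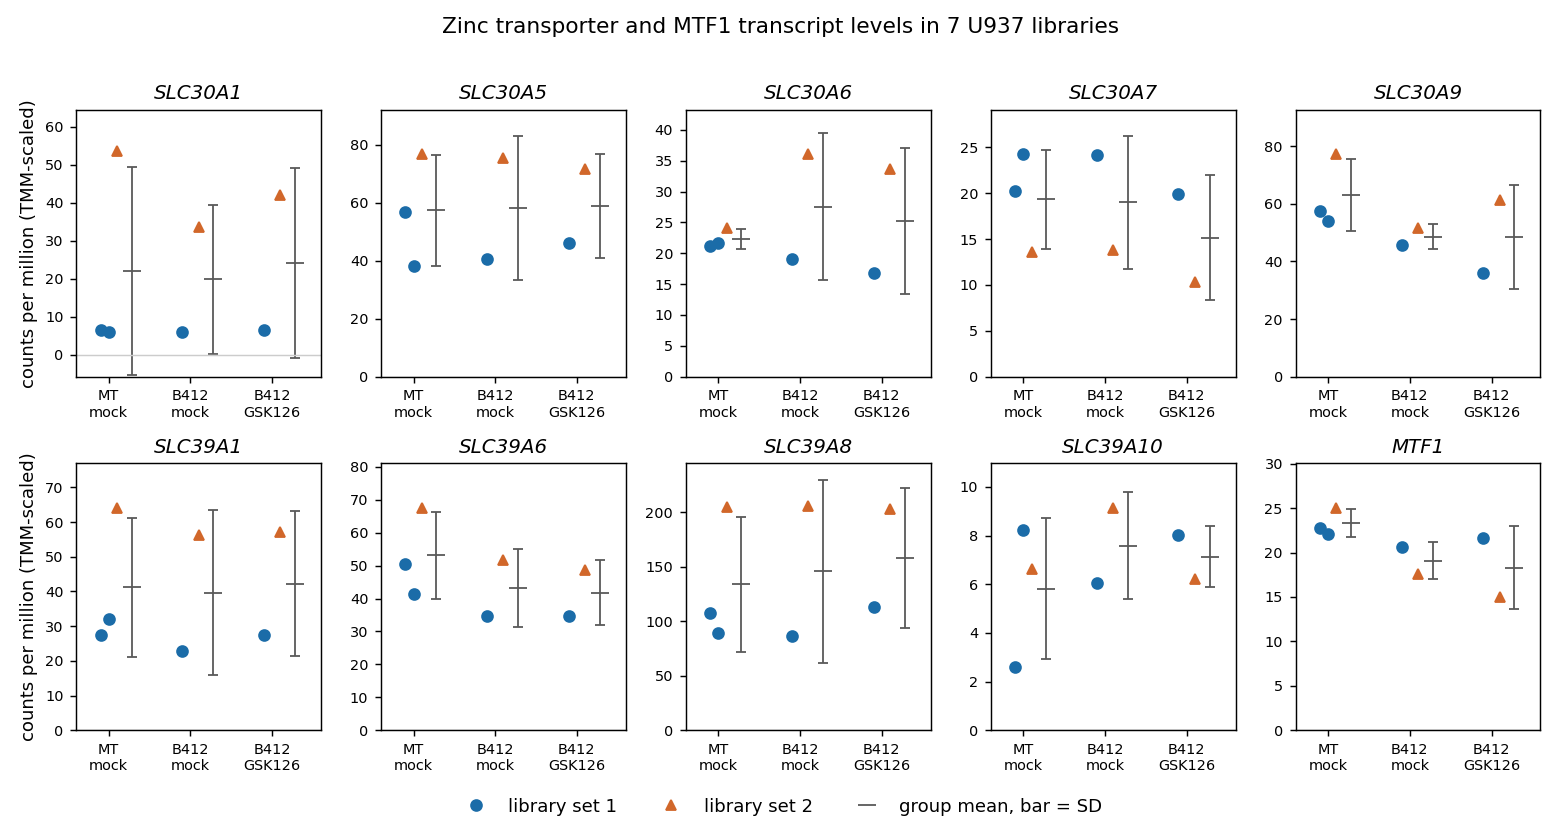
Levels of the 10 zinc genes in CPM on TMM-scaled totals (vertical axes, linear), by group (horizontal axes). Circles are libraries of set 1 and triangles those of set 2, and the grey marks are group means with their SD (n = 3, 2 and 2). In SLC30A1 the triangles lie between 33.6 and 53.6 and the circles between 6.03 and 6.58 in every group, while MTF1 spans 15 to 25.

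The group means of SLC30A1 were 22.1 ± 27.3 CPM for MT_mock (SD, n = 3), 19.8 ± 19.5 CPM for B412_mock and 24.2 ± 25 CPM for B412_GSK126 (SD, n = 2 each), each SD close to its mean. Over the 7 libraries its coefficient of variation was 92.9%, against 16.3% for MTF1 and 23.6% to 42.3% for the other 8. The sets were drawn from these same counts, so a difference between them is partly built in and is described here without a test. Of the 10 zinc genes 8 had a positive log2 difference from set 1 to set 2, beside 6898 of the 13521 genes tested. The median was 0.59 over the 10 and 0.04 over all genes. Regardless of sign, the median size was 0.69 over the 10 and 0.87 over all genes. SLC30A1 (2.79), SLC39A1 (1.15) and SLC39A8 (1.05) lay above that median of all genes, and the others of the 10 below it.

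Cell markers and EZH2 moved with the sets as well. The 12 myeloid markers summed to 1115 to 2633 CPM in set 1 and 2886 to 7199 CPM in set 2. In these sums MPO alone made up 503 to 1999 CPM and 1629 to 5830 CPM. Of the 10 markers that passed the filter 9 had a positive log2 difference (median 0.97), beside 6898 of the 13521 genes tested (median 0.04). PTPRC, the leukocyte antigen CD45, lay between 65.5 and 76.1 CPM in set 1 and between 204 and 278 CPM in set 2, and CD4 between 193 and 230 and between 448 and 656 CPM; these markers were named after their values were seen. EZH2 in set 2 was 0.376 times its mean in set 1, without overlap. The part of cell state in the set differences of the zinc genes was not tested.

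The importers SLC39A1 and SLC39A8 were next in size, 2.16 and 2.07 times higher in set 2 with no overlap of the sets. The exporters SLC30A5 and SLC30A6 were 1.64 and 1.59 times higher in set 2, also without overlap. SLC30A7 went the other way: it lay between 10.4 and 13.8 CPM in set 2 and between 19.9 and 24.2 CPM in set 1. SLC30A9, SLC39A6, SLC39A10 and MTF1 overlapped between the sets. The sets did not overlap for 6 of these 10 genes, 5 higher and 1 lower in set 2. The share among all genes tested was 59.5%, with 30.2% of all genes higher in set 2.

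Base composition and length moved with the set difference across genes. Among the 12639 genes with a GENCODE 29 transcript, the rank correlation of the set difference with GC content was -0.268 and with transcript length 0.288, as a description across genes of the same libraries. The transcript of SLC30A1 has 38% GC and 5474 bases, where the 10 zinc genes ranged from 36.2% GC (SLC30A7) to 57.2% (SLC39A1) and from 2723 bases (SLC39A1) to 7972 (MTF1). The part of composition and length in these differences was not tested.

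Metallothioneins, the other main targets of MTF1, did not share the step of SLC30A1. The sum of 11 metallothionein genes was 29473, 16111, 15639 and 15396 CPM in the 4 libraries of set 1 and 14138, 5909 and 13283 CPM in the 3 of set 2. MT2A, the most abundant, was lower in set 2 (2761 to 6146 CPM) than in set 1 (9364 to 15152 CPM), and the other detected metallothioneins overlapped between the sets. Within set 2 the lowest metallothionein sum was in B412_mock replicate 2, which had the lowest SLC30A1 of that set as well. Set 1 did not share this: its lowest sum was in B412_GSK126 replicate 1, where SLC30A1 was at 6.54 CPM in a range of 6.03 to 6.58 CPM.

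**Figure D2:**
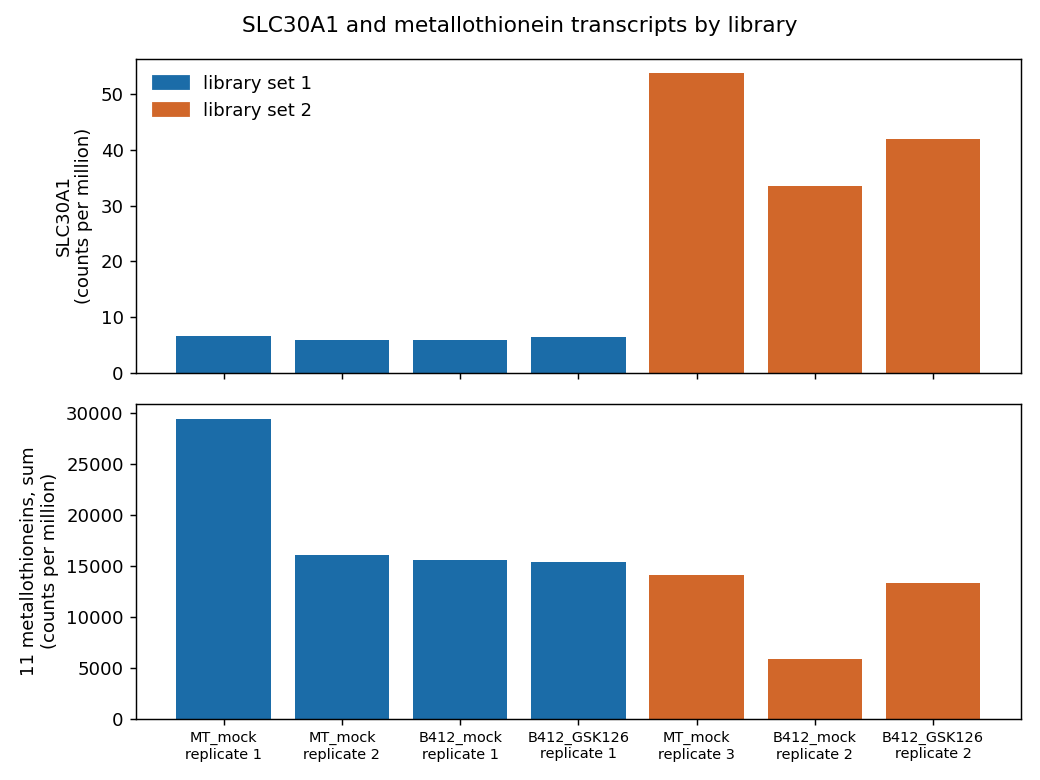
SLC30A1 (top, CPM) and the sum of 11 metallothionein genes (bottom, CPM) in each of the 7 libraries, ordered by library set. Bars start at 0. SLC30A1 is 6.03 to 6.58 in set 1 and 33.6 to 53.6 in set 2, while the metallothionein sum is 15396 to 29473 in set 1 and 5909 to 14138 in set 2.

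Levels were compared between genes per kilobase of the principal GENCODE 29 transcript. On that scale SLC39A8, an importer of zinc and manganese in monocytes, stood highest of the 10 zinc genes. It was at 44.6 CPM per kb over the 7 libraries (range 26.7 to 63.5). SLC39A1, an importer of the plasma membrane, followed at 15.1 (8.4 to 23.6), then SLC30A5 at 13.3 (8.78 to 17.6), SLC39A6 at 13.3 (9.81 to 19.1) and SLC30A9 at 8.79 (5.76 to 12.4). These 4 ranges overlapped with each other, and none reached that of SLC39A8. SLC30A6 was at 4.84 (3.31 to 7.08), SLC30A1 at 4.03 (1.1 to 9.8), MTF1 at 2.59 (1.88 to 3.14), SLC30A7 at 2.28 (1.31 to 3.07) and SLC39A10 at 1.23 (0.477 to 1.68). These low 5 also overlapped with their neighbours in the order. In SLC30A1 the place in the order depended on the set, since its range ran from below that of MTF1 to above that of SLC30A6. Among the carriers outside the 10, SLC39A3 at 146 (71.7 to 214) and SLC39A7 at 50.4 (39.6 to 56.1) stood above SLC39A8.

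Whether the PLZF/RARA line and its parental line differ in these genes was read from B412_mock against MT_mock. With group means only, edgeR's quasi-likelihood test called 0 of 10 zinc genes and 0% of 13521 genes, with 0 of the 10 and 343 of all genes (2.54%) at an unadjusted p under 0.05. With the library set as a further term, edgeR called 0 of 10 and 2.35% of all genes. In that fit 7 of 10 zinc genes had a negative log2 change and the median was -0.20, against 51.1% negative and a median of -0.01 over all genes. The members were chosen with earlier results of these data known, so this share is a description. Without the term 6 of 10 were negative, beside 51.5% of all genes, and the median was -0.04. The sign was the same within both sets for 8 of 10, beside 63.9% of all genes. DESeq2 called 0 of 10 with and without the set term, and limma-voom with the term called 0 of 10.

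SLC30A9, the transporter known to export zinc from mitochondria, came nearest to the threshold. It was at 57.5, 54 and 77.1 CPM in MT_mock and 45.6 and 51.6 CPM in B412_mock. Each B412_mock library was below each MT_mock library, and the same held within set 1 (log2 difference -0.29) and set 2 (-0.58). The log2 change with the set term was -0.43 ± 0.186 (SE, edgeR adjusted p = 0.309), and without it -0.37 ± 0.374 (SE, adjusted p = 1). No other of these genes had an unadjusted p under 0.05 in the fit with the term, and 14.6% of all genes did. The mean was 62.9 ± 12.5 CPM (SD, n = 3) in MT_mock and 48.6 ± 4.19 CPM (SD, n = 2) in B412_mock. The log2 change was negative in 22 of 22 alternative fits, none of which called it.

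MTF1 was at 22.8, 22.1 and 25 CPM in MT_mock and 20.6 and 17.6 CPM in B412_mock, again without overlap. Its log2 change with the set term was -0.27 ± 0.241 (SE, edgeR adjusted p = 0.668), with a 95% interval of -0.80 to 0.26. SLC30A9 and MTF1 were the 2 of 10 zinc genes whose groups did not overlap, both lower in B412_mock. Of all tested genes, 11.8% did not overlap and 6.44% were lower in B412_mock without overlap.

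Among the exporters of the secretory pathway, SLC30A5 and SLC30A6 form a heterodimer that loads zinc into enzymes of that pathway, and SLC30A7 fills the Golgi. SLC30A5 was at 56.9, 38.3 and 76.6 CPM in MT_mock and 40.5 and 75.5 CPM in B412_mock. SLC30A6 was at 21.1, 21.6 and 24.1 CPM in MT_mock and 19.1 and 36 CPM in B412_mock. SLC30A7 was at 20.2, 24.2 and 13.6 CPM in MT_mock and 24.1 and 13.8 CPM in B412_mock. The groups overlapped for each of these 3, and their log2 changes with the set term were -0.13 ± 0.202, 0.12 ± 0.25 and 0.09 ± 0.236 (SE). Without the term the signs of SLC30A5 (0.02) and SLC30A7 (-0.03) turned. SLC30A6 differed in sign between the sets, with -0.16 in set 1 and 0.58 in set 2. For SLC30A1 the log2 change was -0.35 ± 0.244 with the set term (SE, edgeR adjusted p = 0.566), from -0.06 in set 1 and -0.67 in set 2.

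Among the importers, SLC39A6 and SLC39A10 belong to the LIV-1 branch and form a complex at the plasma membrane. SLC39A6 was at 50.5, 41.4 and 67.5 CPM in MT_mock and 34.8 and 51.6 CPM in B412_mock. The groups overlapped, yet the difference was nearly the same in both sets, -0.39 and -0.39 on the log2 scale. With the set term it was -0.39 ± 0.181 (SE, edgeR adjusted p = 0.348). SLC39A10, the least abundant, was at 2.59, 8.25 and 6.63 CPM in MT_mock and 6.03 and 9.14 CPM in B412_mock. MT_mock replicate 1 was the low library, and the log2 change of 0.34 had a 95% interval of -0.67 to 1.36, the widest of the 10 with the set term. SLC39A8 was at 107, 89.5 and 205 CPM in MT_mock and 86.5 and 205 CPM in B412_mock, and SLC39A1 at 27.4, 32 and 64.1 CPM and at 22.9 and 56.4 CPM. Their log2 changes with the set term were -0.09 ± 0.161 and -0.28 ± 0.188 (SE), and without the term that of SLC39A8 was 0.12. In the count tables, which do not separate strands, SLC39A1 shares 101 exon bases with CREB3L4 on the opposite strand (GENCODE 29). It also shares 2061 of its 3388 exon bases with AL358472.7 on the same strand. SLC30A5 shares 532 of 5053 with AC010273.1 on the opposite strand. Reads of these bases cannot be assigned to one gene, and AL358472.7 and AC010273.1 have no counts of their own in the tables.

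**Figure D3:**
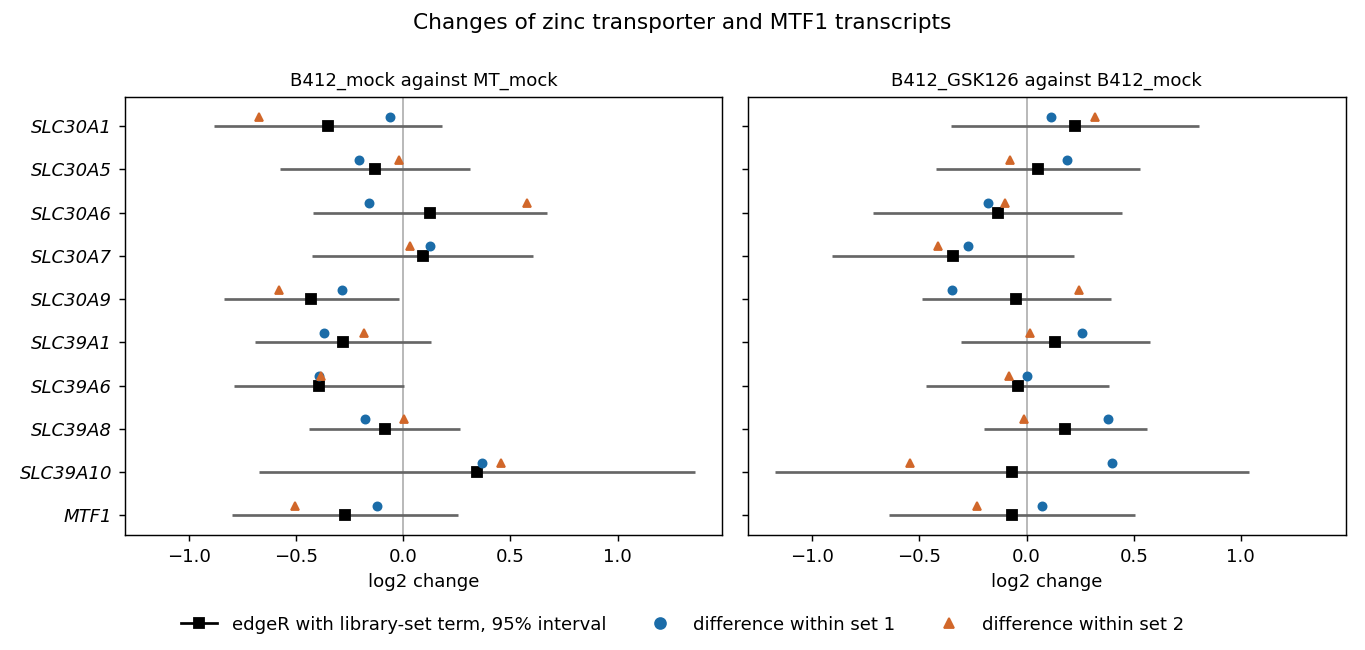
Log2 change of the 10 zinc genes in B412_mock against MT_mock (left) and B412_GSK126 against B412_mock (right). Squares are edgeR estimates with the library-set term and their 95% intervals, circles and triangles the differences within set 1 and set 2. Intervals with group means only are wider and are not drawn. In the left panel 9 of 10 intervals hold 0 and that of SLC30A9 ends at -0.02 before adjustment for many genes; in the right panel 10 of 10 hold 0.

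How large a change these libraries allow depends on the fit. In B412_mock against MT_mock with the set term, 9 of 10 intervals lay within a 2-fold difference in either direction, the exception being SLC39A10, and with group means only 0 of 10 did. The interval of SLC39A8 was -0.44 to 0.27 on the log2 scale with the term and -1.22 to 1.47 without it, and that of SLC30A1 was -0.89 to 0.18 with it and -3.26 to 2.94 without it. The p-values of the fit with the term may be too small and its intervals too narrow, since the sets were taken from the same counts.

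Whether these transcripts differed after EZH2 catalysis was blocked in PLZF/RARA cells was read from B412_GSK126 against B412_mock. EdgeR called 0 of 10 zinc genes and 0% of all genes, with and without the set term. At an unadjusted p under 0.05 there were 0 of 10 in both fits, and 464 of all genes with the term (3.43%) and 32 without it (0.237%). DESeq2 called 0 of the 10 with and without the term, and limma-voom with the term 0. The median log2 change with the term was -0.05 over the 10 and 0.01 over all genes, with 6 of 10 negative, beside 48.2% of all genes.

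SLC30A1 was at 6.54 and 41.9 CPM with GSK126 and at 6.03 and 33.6 CPM in B412_mock, a log2 difference of 0.12 in set 1 and 0.32 in set 2. The log2 change with the term was 0.23 ± 0.264 (SE, edgeR adjusted p = 1), with an interval of -0.35 to 0.80 in that fit. SLC30A7 was at 19.9 and 10.4 CPM with GSK126 and at 24.1 and 13.8 CPM in B412_mock. Its log2 change of -0.34 ± 0.258 (SE) was the largest of the 10 and had the same sign in both sets (-0.27 and -0.41). The groups overlapped for 10 of 10 zinc genes, where 12.6% of all tested genes did not overlap.

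SLC39A8 was at 113 and 203 CPM with GSK126 against 86.5 and 205 CPM, with log2 differences of 0.38 in set 1 and -0.01 in set 2. SLC39A10 was at 8.01 and 6.23 CPM against 6.03 and 9.14 CPM, with log2 differences of opposite sign in the sets (0.40 and -0.54). SLC30A9, at 35.8 and 61.1 CPM against 45.6 and 51.6 CPM, also differed in sign (-0.35 and 0.24). SLC30A5 was at 46.1 and 71.5 CPM, SLC30A6 at 16.9 and 33.6 CPM, SLC39A1 at 27.4 and 57.1 CPM, SLC39A6 at 34.8 and 48.7 CPM, and MTF1 at 21.6 and 15 CPM with GSK126. Their log2 changes with the term lay between -0.14 for SLC30A6 and 0.13 for SLC39A1. Of the 10 genes 4 had the same sign in both sets, beside 56.8% of all genes, and with the term 9 of 10 intervals lay within a 2-fold difference, again without SLC39A10. With group means only 2 of 10 did (SLC30A9 and MTF1), and the interval of SLC30A1 was -3.09 to 3.67.

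B412_GSK126 against MT_mock shares its libraries with both other comparisons and is given by counts. EdgeR called 0 of 10 zinc genes without the set term and 0 with it, where 0% and 1.9% of all genes passed. At an unadjusted p under 0.05 there were 2 of 10 with the term, SLC30A9 and SLC39A6, both lower than in MT_mock, beside 15% of all genes. MTF1 was the 1 of 10 whose groups did not overlap, 14.97 and 21.6 CPM with GSK126 against 22.1 to 25 CPM in MT_mock, where 12% of all genes did not overlap and 5.88% were lower.

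Of 15 further SLC30A and SLC39A genes 8 passed the filter on low counts. SLC30A3, SLC30A4, SLC30A8, SLC30A10, SLC39A2 and SLC39A12 had 0 counts in the 7 libraries, where 3 counts would stand for 0.202 to 0.236 CPM, and SLC30A2 had counts in 1 library only. Of the 8 tested, 0 were called in B412_mock against MT_mock or in B412_GSK126 against B412_mock by edgeR, DESeq2 or limma-voom. At an unadjusted p under 0.05 edgeR with the term had 1 of 8 in each (14.6% and 3.43% of all genes), SLC39A14, with log2 changes of -0.49 and 0.65; this gene was named after its values were seen. SLC39A13, also named after its values were seen, was at 7.77, 7.80 and 6.21 CPM in MT_mock, 9.63 and 11 CPM in B412_mock and 17.2 and 12.3 CPM in B412_GSK126. It was the 1 of 8 without overlap in each of the 3 comparisons, where 11.8%, 12.6% and 12% of all genes did not overlap. In B412_GSK126 against MT_mock DESeq2 with the term called SLC39A13 higher (log2 change 1.04, adjusted p = 0.0464), as 1 of 604 genes called, and edgeR with the term did not (1.05, adjusted p = 0.0996). In B412_mock against MT_mock 2 of 8 were positive with a median of -0.12, beside 6616 of the 13521 genes tested. With GSK126 against B412_mock 7 of 8 were positive, beside 7006 of all genes, with a median of 0.36 against 0.01 over all genes. SLC39A3, SLC39A7 and SLC39A11 were the most abundant in counts. SLC39A7, which releases zinc from the endoplasmic reticulum, ranged from 95.5 to 135 CPM, with the lowest coefficient of variation over the 7 libraries among the tested genes of the 2 families (12.5%). SLC39A3 was 0.441 times its set 1 mean in set 2, and SLC39A11 2.18 times, so the family held set differences of both signs.

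Of 11 metallothioneins 9 were tested and edgeR called 0 in both comparisons, with and without the term. At an unadjusted p under 0.05 edgeR with the term had 3 of 9 in B412_mock against MT_mock, where 14.6% of all genes had one, and 1 of 9 with GSK126, where 3.43% had. DESeq2 with the term called 684 genes in B412_mock against MT_mock, 2 of the 9 among them, both lower in B412_mock: MT2A (log2 change -0.72, adjusted p = 0.0413) and MT1F (-0.84, adjusted p = 0.0459), the latter named after its values were seen. DESeq2 without the term and limma-voom with it called 0. With the term 9 of 9 were negative in B412_mock against MT_mock (median -0.86), beside 51.1% of all genes. With GSK126 against B412_mock 9 of 9 were positive (median 0.55), beside 7006 of the 13521 genes tested. The sign was the same within both sets for 9 of 9 in the former comparison and only 4 of 9 in the latter. Over all genes these shares were 63.9% and 56.8%. These comparisons share the B412_mock libraries, and in set 1 the log2 difference of MT2A with GSK126 was 0.04 against 1.15 in set 2. MT2A, MT1G and MT1X were the most abundant. Of 9 other zinc handling genes 6 were tested and 0 were called in either comparison by edgeR, DESeq2 or limma-voom, with 1 of 6 (S100A9, negative in B412_mock against MT_mock and named after its values were seen) at an unadjusted p under 0.05 in edgeR with the term (14.6% of all genes). TMC8 and TMC6, whose proteins bind the SLC30A1 protein, and TRPM7, a channel that passes zinc, were the most abundant of them, at 87.6 to 275, 72.2 to 128 and 36.6 to 72.6 CPM over the 7 libraries.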

How the data were processed

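The authors deposited whole-number read counts per gene symbol, 26364 symbols, in 3 tables covering 7 libraries. Per the submitters' processing notes, FastQC, Subread and featureCounts were used with build hg19; for versions and annotation the sources used here give nothing. Per the labels' protocols, cDNA came from a low-input SMART-Seq kit, a kind that does not mark strand, and no molecular identifiers are named, so amplified copies count as reads.

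Counts were tested with edgeR 4.0.16 (R 4.3.3): TMM scaling, filterByExpr (minimum count 10, minimum total 15; 13521 genes tested), robust quasi-likelihood fit on all 7 libraries with group means, and Benjamini-Hochberg adjustment over all tested genes with a threshold of 0.05. Totals of 12736244 to 14848130 counts make 3 counts equal 0.202 to 0.236 CPM. Library sets were read from component 1 of a principal component analysis of log2 CPM (prior count 2), with 65.7% of the variance. The fit with groups alone left a biological coefficient of variation of 58.3% on 4 residual degrees of freedom, and that with the set term 21.9% on 3. DESeq2 1.42.0, limma 3.58.1 (voom), other scaling, no filter, a replicate block and leaving out each library were alternatives. The edgeR script was tested on simulated data.

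The 10 genes were reported in full. The rule for the other lists was to name genes called in either comparison by either edgeR fit. For further carriers, metallothioneins and other zinc handling genes it added the 3 with the highest mean level. More genes were named outside this rule. Among them SLC39A4, SLC39A9, SLC39A13, SLC39A14, MT1F, S100A9, PTPRC and CD4 were named after their values were seen. The members and lists were chosen with earlier results of these data known. Promoter windows come from RefSeq (GRCh38.p14; 10 of 10 genes and 5 of 11 metallothioneins matched), and transcript length and GC content from GENCODE 29, neither being the authors' build.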

Additional observations from a re-analysis of the deposited data

How the results depend on the processing

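Of the 10 zinc genes 0 were called in each of the 3 comparisons under 22 of 22 alternatives. Counts of all genes called moved instead. For B412_mock against MT_mock they were 0 with group means alone, 318 with the set term, 5 with no filter on low counts, 95 with DESeq2, 684 with DESeq2 and the set term, and 295 with limma-voom and the set term. For B412_GSK126 against B412_mock they were 4 with DESeq2 and 1 with limma-voom, each with the set term, and 0 in the other fits with no library left out. For B412_GSK126 against MT_mock they were 257 with the set term, 65 with DESeq2, 604 with DESeq2 and the set term, and 318 with limma-voom and the set term. Leaving out 1 library with the set term gave 33 to 587, 0 to 3 and 72 to 693 genes called in these comparisons, and 0 without the term. The highest counts came without MT_mock replicate 1 (587 and 693) and without B412_GSK126 replicate 1 (3), the lowest without B412_mock replicate 1 (33) and without B412_GSK126 replicate 2 (72). The cause was not tested. Where 1 library is left, it is assumed to vary like the other groups.

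In B412_mock against MT_mock, the signs of 3 genes turned with the set term. The log2 changes were -0.132, -0.127 and -0.107 for SLC30A5, 0.0905, 0.0972 and 0.102 for SLC30A7, and -0.086, -0.0808 and -0.0742 for SLC39A8 in edgeR, DESeq2 and limma-voom. SLC30A9, SLC39A6, SLC39A10 and MTF1 kept their direction in 22 of 22 alternatives. With no filter SLC30A9 turned to 0.0075 with GSK126 against B412_mock. The replicate block, by the numbers in the titles, called 0 genes in each comparison (890, 60 and 746 at an unadjusted p under 0.05). Under the block SLC30A1 turned to 0.99 and SLC39A1 to 0.26 in B412_mock against MT_mock, and SLC39A10 to 0.0046 with GSK126. As a check of pairing, deviations of the libraries from their group means were correlated. With 2 libraries in each B412 group these deviations mirror each other, so both numbers give 1 and the same value. Same-numbered B412_mock and B412_GSK126 libraries deviated together (r = 0.847), as did MT_mock replicate 1 with the B412 replicates 1 (0.664 and 0.623). MT_mock replicate 2 also went with the B412 replicates 1 (0.634 and 0.635), and thereby against the B412 replicates 2 (-0.634 and -0.635). In these deviations the MT_mock libraries therefore went with the B412 libraries of their set and not by number. The set difference was not taken out beforehand, so a pairing by number beneath it was not tested. Between the B412 groups, number and library set are the same.

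Leaving out 1 library, with or without the set term, turned the sign of these log2 changes, given as the lowest and highest value over those fits. In B412_mock against MT_mock, -1.89 to 1.65 for SLC30A1, -0.51 to 0.40 for SLC30A5, -0.23 to 0.70 for SLC30A6, -0.47 to 0.31 for SLC30A7, -0.86 to 0.46 for SLC39A1 and -0.65 to 0.62 for SLC39A8. In B412_GSK126 against B412_mock, -0.35 to 0.18 for MTF1, -1.61 to 2.02 for SLC30A1, -0.36 to 0.55 for SLC30A5, -0.72 to 0.42 for SLC30A6, -0.86 to 0.12 for SLC30A7, -0.45 to 0.34 for SLC30A9, -0.54 to 0.90 for SLC39A1, -0.47 to 0.32 for SLC39A10, -0.32 to 0.28 for SLC39A6 and -0.38 to 0.88 for SLC39A8.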

Other observations

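Among carriers outside the 10, the library sets differed in both directions. The most abundant, SLC39A3, was at 273 to 322 CPM in set 1 and 108 to 154 CPM in set 2, and SLC39A4 at 67.8 to 79.8 and 13.6 to 28.5 CPM. SLC39A9 was at 31.2 to 35.4 CPM in set 1 and 75.3 to 110 CPM in set 2, and SLC39A14 at 16.7 to 23.8 and 44.9 to 76.7 CPM. SLC39A4, SLC39A9 and SLC39A14 were named after their values were seen. None of these genes was called between groups by edgeR, DESeq2 or limma-voom.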
